A study of Danio rerio with 3 samples.

Results

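The transcript profile of the uninjected zebrafish embryo at 24 hours post-fertilization was described from 1 array, with its probe sets ranked by signal. All 15502 probe sets that measured zebrafish transcripts were ranked, and the 300 brightest, 1.94% of them, were taken as the members to be described. The RNA came from 1 pool of 400 whole embryos that had received no injection and were kept at 28 ± 0.5 °C. Their eggs were fertilized artificially and mixed before the groups were formed. The study also held 1 array of embryos given an siRNA to silence PGRP-SC, a peptidoglycan recognition protein, and 1 array of embryos given a control siRNA. Those arrays were not used here. No strain, genotype or sex was given in the labels. The uninjected group had no second array, so no value below has a replicate error and no test was made. The single array limits the precision of every value.

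A zebrafish embryo at this stage is in the pharyngula period. The body axis has formed, the trunk somites hold contracting muscle, the heart tube beats and the first red blood cells circulate. The embryo is covered by a thin epidermis and still lives on yolk, which the yolk syncytial layer packs into lipoproteins. The embryo has not hatched, and the exocrine pancreas, the photoreceptors, myelinating glia and lymphocytes are not yet functional.

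Each probe set is a group of short probes against a stretch of one transcript, and its signal is a linear intensity without units. The brightness of a probe set depends on its probes as well as on the transcript, so a rank orders brightness and not the number of transcript molecules. The table held no detection calls, and a low rank therefore does not show that a transcript was missing. Percentile below means the share of the ranked probe sets with a lower signal, and the percentile of a gene is that of its brightest probe set.

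Signals ran between 0.572 and 47316, with a median of 166.4 and a 99th percentile of 12279. The top 300 started at 6747, which was 40.5 times the median of the array, and their own median was 12916, against 159.2 for the other probe sets. Together they held 38.5% of the summed signal. The platform annotation gave 1 gene to 267 of the 300, 89% of them, against 69.6% of all probe sets. A further 15 named several genes and 18 named none. Probe sets whose name ends in a, s or x, which the maker uses where probes match more than 1 transcript, were 15% of the top 300, against 5.92% of all. The 267 probe sets named 251 different genes, which is 2.85% of the 8793 genes named on the array. Every count of genes inside the top 300 below is to be read beside that 2.85%. All gene lists were chosen with earlier results of these data known, so the counts describe the lists and are no independent support for an enrichment. Of the 251 genes, 14 had more than 1 probe set among the 300. Probe sets of the actin control differed by position, with a signal of 30281 at the 3′ end and 11176 at the 5′ end, and those of the GAPDH control had 3437 at the 3′ end and 1203 at the 5′ end. The part of this end difference in the ranks was not tested. A choice of 5 control probe sets, named for reporter proteins or bacterial genes and leaving out the spike-in controls, had signals between 2.203 and 52.1. Of the ranked probe sets, 74.4% lay above the brightest of these 5. Spike-in controls, some also named for bacterial genes, were brighter, such as the 3′ probe sets of BioB with 373.3 and BioDn with 6054. The 5 chosen controls therefore set no background level.

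The label of the sample was set against markers of 18 cell types. The skeletal muscle markers on the array had a median percentile of 99.04 over 6 genes, the epidermis markers 99.1 over 4, the neural progenitor markers 92.4 over 3 and the erythrocyte markers 91.6 over 5. Markers of cells that form later lay low: exocrine pancreas at 28.3 and photoreceptors at 29.1 over 2 genes each, and lymphocytes at 19.5 over 2. The only myelin marker on the array, mbpa, lay at 10.7, but it was the dimmest of 6 myelin genes with a median of 65.6. The single lens marker, cryaa, lay at 24.5. Notochord markers lay at 88.4 over 2 genes, the hatching gland marker at 85.3, pronephros markers at 80.1 over 3, neuronal markers at 79.1 over 4, heart markers at 74.0 over 2 and the endothelial marker at 66.7. Markers of pigment cells at 54.6 over 2 genes, myeloid cells at 54.5 over 4 and germ cells at 42.8 over 3 lay below the 60.5 of all named genes. Each of these marker values rests on few genes, and the fuller lists below can differ. The heart list lay at 59.97 over 19 genes, the endothelial list at 45.3 over 23 and the neuronal list at 59.5 over 79, all lower than their markers. The neural crest and pigment list lay at 83.0 over 28 genes, higher than the pigment markers.

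**Figure D1:**
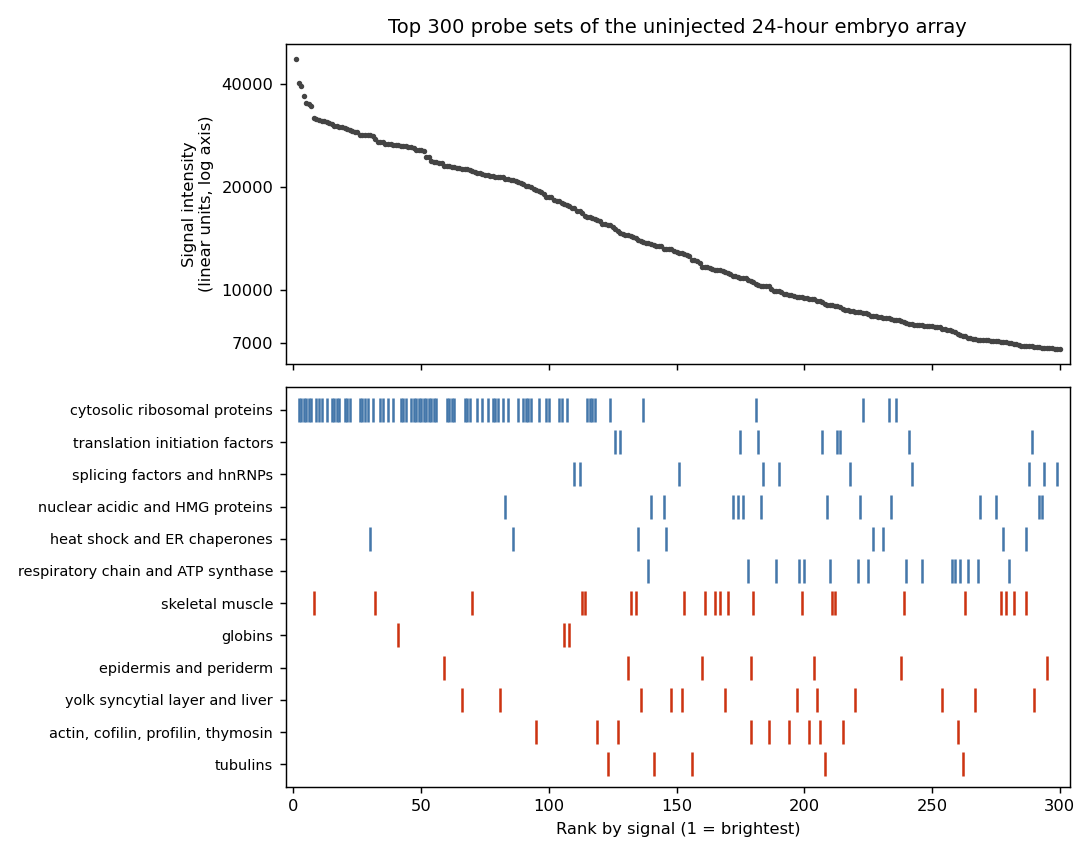
The upper panel plots signal intensity (linear units, log axis) against rank for the 300 brightest probe sets, and the lower panel marks the ranks of 12 gene lists, with general cell functions in blue and tissues and cytoskeleton in red. Ribosomal proteins fill most of the first 100 ranks, and the respiratory chain and splicing lists start after rank 100.

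The ribosome led the profile. Of 80 probe sets for cytosolic ribosomal proteins on the array, 76 were in the top 300, which is 95% of the list against 2.47% of all probe sets with 1 gene. They were 25.3% of the top 300, and they took 21 of the first 30 ranks and 42 of ranks 31 to 100. Cytosolic ribosomes make nearly all proteins of a cell.

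The brightest of these genes were rps2 at rank 2 with a signal of 40018, rpl3 at rank 3 with 39417, rpsa at rank 4 with 36912 and rpl7a at rank 5 with 35172. All of them encode proteins of the small or the large subunit. Also among the 30 brightest probe sets with a gene name, leaving out the clone name zgc:171772 at rank 25 with 28832, were, in order of signal, rps4x, rpl8, rplp0, rps14, rpl19, rpl6, rps15, rps27a, rpl15, rpl23, rpl35, rpl5b, rps3, rps23, rps12, rpl10, rpl7, rps18 and rpl12, with signals between 34963 for rps4x and 26941 for rpl12. The large subunit had 44 of 45 genes in the top 300 and the small subunit 29 of 31, with median percentiles of 99.7 and 99.6. The scaffold protein rack1, which sits on the small subunit and was counted in the list, was at rank 18 with 29984.

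The 3 ribosomal genes outside the top 300 were rpl7l1 at rank 502 with 4227, rps27l at rank 1891 with 1249 and faub at rank 2164 with 1091. Each is a second form of another ribosomal gene on the array, and that other form was inside: rpl7 at rank 31, rps27.1 at rank 107 and faua at rank 79. Of the genes inside, the dimmest was rpl22l1 at rank 223, also a second form, while rpl22 was at rank 105. The fourth ribosomal probe set outside the top 300 was a second one for rpl21, with a signal of 29.7 at rank 12933, whereas the other rpl21 probe set had 16401 at rank 115.

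Of the 59 mitochondrial ribosomal protein genes 0 were in the top 300, beside 2.85% of all named genes. Their brightest was mrpl23 at rank 1082 with 2197, and their median percentile was 83.3, against 60.5 for all named genes.

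Other parts of the translation machinery followed. Elongation factors, which bring aminoacyl-tRNA to the ribosome and move it along, had 4 of 11 genes in the top 300: eef1a1l1 at rank 40 with 26484, eef2b at rank 45 with 26095, eef1g at rank 98 with 19075 and eef1b2 at rank 101 with 18664. The family was split, since eef2a.1, another eEF2 gene, was at rank 5423 with 338.9 and eef1a1b, another eEF1A gene, at rank 13740 with 18.5.

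Initiation factors had 8 of 50 genes in the top 300, 16% against 2.85% of all named genes, and a median percentile of 92.6. Their brightest were pabpc1a, the poly(A) tail binding protein, at rank 126 with 15072, eif5a at rank 175 with 10884 and eif5a2 at rank 182 with 10394. The other 5 were subunits of eIF3, the complex that holds the small subunit ready for mRNA, led by eif3ea at rank 207 with 9222. Of the 14 eIF3 genes on the array, 11 were in the brightest 10% of the probe sets, 78.6% against 14.5% of all named genes. The aminoacyl-tRNA synthetases, which charge tRNAs with amino acids, had none of 21 genes in the top 300, beside 2.85% of all named genes. Their median percentile was 82.1, and their brightest was kars1 at rank 363 with 5612.

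Proteins that meet the new chain at the ribosome were bright as well. The nascent chain complex, signal recognition particle and translocon had 23 genes on the array. Of these, 5 were in the top 300 and 20 in the brightest 10%, against 2.85% and 14.5% of all named genes. They were led by naca at rank 102 with 18338 and btf3 at rank 125 with 15270, which form the nascent polypeptide-associated complex. After them came dad1, a subunit of the enzyme that attaches N-glycans, at rank 232, and the translocon proteins ssr3 at rank 274 and ssr4 at rank 286.

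**Figure D2:**
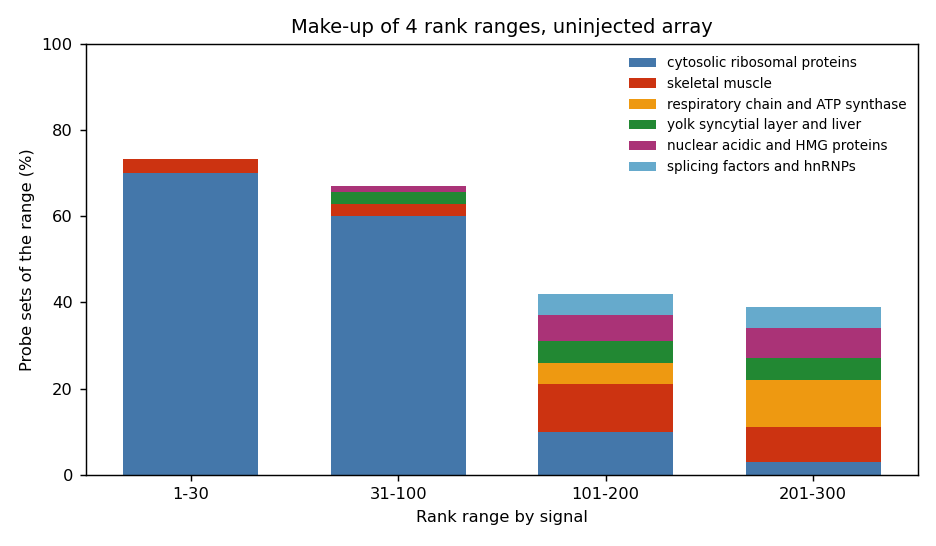
Bars give the share (%) of the probe sets in 4 ranges of signal rank that belong to each of 6 gene lists. Ribosomal proteins fall from 70% of ranks 1 to 30 to 3% of ranks 201 to 300, while the respiratory chain list goes from 0 to 11%.

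RNA-binding proteins of the nucleus formed a broad bright group. Splicing factors and hnRNPs had 9 of 108 genes in the top 300, 8.33% against 2.85% of all named genes. Their median percentile was 93.5. In the brightest 10% were 71 of them, 65.7% against 14.5% of all named genes. The cold-inducible RNA-binding genes cirbpa and cirbpb were at ranks 110 and 112, with signals of 17361 and 17046. The hnRNP gene hnrnpa0l was at rank 151 with 12881, and khdrbs1a, a splicing regulator, at rank 184 with 10300. RNA helicases of the DEAD and DEAH families, which also act on RNA, had none of 37 genes in the top 300, beside 2.85% of all named genes. Their median percentile was 65.9, and their brightest was ddx39ab at rank 376.

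Small chromatin proteins were the next group. Of 31 genes for high mobility group proteins and acidic nuclear proteins, 13 were in the top 300, 41.9% against 2.85% of all named genes. Their median percentile was 97.5. The brightest was hmga1a, which binds AT-rich DNA, at rank 83 with 21062. Prothymosin alpha, ptmab, was at rank 140 with 13646, the nucleosome-binding hmgn6 at rank 145 with 13183, and hmgb2a, which bends DNA, at rank 172 with 11026. Every gene of the list was above the median of the array, and the dimmest was npm2b at rank 6930 with 214.1; nucleoplasmin of this type is known as a maternal protein of the egg.

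Histones were represented by 8 genes, of which the variant genes h2az2b at rank 162 with 11683 and h3f3d at rank 201 with 9480 were in the top 300. Another 3 probe sets in the top 300 named several histone H3 genes each and were not assigned. The dimmest histone gene was h1m, the maternal linker histone, at rank 14318 with 10.29.

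Cell cycle and DNA replication genes had a lower median percentile than cytosolic ribosomal protein genes. The sliding clamp gene pcna was at rank 109 with 17418. It was the only 1 of 57 genes of this list in the top 300, 1.75% beside 2.85% of all named genes. The list had a median percentile of 88.1 and 25 genes in the brightest 10%, 43.9% against 14.5% of all named genes. Next in rank were mcm2 at rank 353, ccnd1 at rank 358 and dut at rank 365. Outside that list, rrm2l, named for the small subunit of ribonucleotide reductase, was at rank 249 with 7855; it was chosen after its value was seen.

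Protein folding gave a mixed picture. The CCT chaperonin, a ring of related subunits that folds actin and tubulin, had 3 of 8 genes in the top 300, and its dimmest gene, cct8, was still at percentile 96.9. Those inside were cct5 at rank 185 with 10279, cct6a at rank 244 and cct4 at rank 252. Heat shock proteins, prolyl isomerases and endoplasmic reticulum chaperones had 7 of 76 genes inside, 9.21% against 2.85% of all named genes. Their median percentile was 76.9. The prolyl isomerase gene ppiaa was at rank 30 with 28260, hspa8, the constitutive HSP70, at rank 86 with 20909, ppiab at rank 135 with 14019 and hsp90ab1 at rank 146 with 13162. The proteasome had 3 of 48 genes inside, psmb7, psmb1 and psma8, 6.25% beside 2.85% of all named genes. Its median percentile was 92.7. Of 78 genes of the ubiquitin pathway only the polyubiquitin gene ubb was inside, at rank 166, which is 1.28% beside 2.85% of all named genes.

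Energy metabolism put a mitochondrial transcript at rank 1. COX1, the subunit of cytochrome c oxidase that is encoded in the mitochondrial genome, had the brightest probe set of the array at 47316, and its other probe sets were at rank 33 with 26961 and rank 87 with 20853. It was the only gene of the mitochondrial genome that the array named.

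The nuclear genes of the respiratory chain and ATP synthase had 16 of 81 genes in the top 300, 19.8% against 2.85% of all named genes. Their median percentile was 95.9, and 69 genes were in the brightest 10%, 85.2% against 14.5% of all named genes. They entered lower down: none was in the first 100 ranks, 5 were in ranks 101 to 200 and 11 in ranks 201 to 300. By complex, cytochrome c oxidase had 7 of 14 genes inside and ATP synthase 7 of 16, against 2.85% of all named genes. Complex I had 1 of 33, which is 3.03% and close to that share. Complex II had none of 4 and complex III none of 8, too few genes to tell these counts from that share.

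The brightest of the list was atp5mc3b, a ring subunit of ATP synthase, at rank 139 with 13704. It was followed by the cytochrome c oxidase subunit cox6b2 at rank 178 with 10698, atp5mc1, another ring subunit, at rank 189 with 9962 and cox7b at rank 198 with 9560. All 8 complex III genes and all 4 complex II genes were in the brightest 10% although none was in the top 300. The single complex I gene inside, ndufa4a, was at rank 259; its mammalian counterpart has been reassigned to cytochrome c oxidase. The electron carrier cytochrome c, cycsb, was at rank 280 with 7045. At the other end, cox4i2 was at rank 9376 with 100.9.

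Glycolysis had 3 of 27 genes in the top 300, gapdh at rank 159 with 12021 and the aldolase genes aldoaa at rank 195 and aldoab at rank 250, while tpi1b at rank 302 lay just outside. The phosphate carrier of the inner mitochondrial membrane, slc25a3b, was at rank 187 with 10083. It was the only 1 of 46 carriers, porins and import proteins inside, 2.17% beside 2.85% of all named genes.

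A small group of methyl transfer and creatine genes was bright. Betaine-homocysteine methyltransferase, bhmt, was at rank 23 with 29081, and its second probe set was at rank 155 with 12597. The other genes of this list inside were gamt at rank 150 with 12950 and gatm at rank 253 with 7793, which make creatine, prmt1, an arginine methyltransferase, at rank 193 with 9726, and ahcy, which removes the product of methylation, at rank 229 with 8379. That made 5 of 16 genes, with a median percentile of 90.5. The list was drawn up after these ranks had been seen, so its counts describe it and show no enrichment.

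Iron storage had 3 of 8 genes inside, 37.5% beside 2.85% of all named genes. The ferritin genes fth1a and fthl27 were at ranks 64 and 158 with 22656 and 12191. Transferrin, tfa, was at rank 169 with 11315. Among redox proteins, the thioredoxin gene txna was at rank 121 with 15646 and prdx2, a peroxiredoxin, at rank 257, and 2 of 32 genes were inside.

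The cytoskeleton was well represented. Non-muscle actins, their partners and thymosins had 9 of 41 genes in the top 300, 22.0% against 2.85% of all named genes. Their median percentile was 92.8. The actin-sequestering peptide gene tmsb4x was at rank 95 with 19604, the cytoplasmic actins actb1 at rank 119 with 16045 and actb2 at rank 127 with 14881, and profilin pfn1 at rank 179 with 10664. Tubulins had 3 of 14 genes inside, 21.4% against the same 2.85%. These were tuba8l4 at rank 123 with 15544, tubb2b at rank 141 with 13586 and tubb4b at rank 208 with 9152.

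Among signal and transport proteins, ran, the GTPase of nuclear transport, was at rank 65 with 22643 and arf5, of vesicle traffic, at rank 285, and these were 2 of 67 small GTPases, a share close to that of all named genes. The 14-3-3 proteins, adaptors that bind phosphorylated proteins, had ywhaba at rank 219 and ywhabl at rank 266 inside and a median percentile of 97.0 over 10 genes. Annexins, S100 proteins and calmodulins, which bind calcium, had 3 of 26 genes inside, and the brightest was the calmodulin gene calm3b at rank 147 with 13162. The lysosomal proteases ctsla at rank 144 with 13455 and ctsba at rank 226 with 8442 were the cathepsins inside, 2 of 13 genes.

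Skeletal muscle was the tissue with the most probe sets at the top. Of 87 probe sets of its list 22 were in the top 300, and of 74 genes 20 were, which is 27.0% against 2.85% of all named genes. The whole list had a median percentile of 88.7, and 16 of its genes lay below the median of the array. In RNA of whole embryos, fewer cells of a type and less RNA per cell cannot be told apart, which holds for all tissue lists below. Sarcomeres are built of thin filaments of actin with troponin and tropomyosin, and of thick filaments of myosin.

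Thin filament genes had 8 of 15 inside and a median percentile of 98.2. Actin actc1b was at rank 8 with 31830, and a second probe set of it at rank 32 with 27637. Another sarcomeric actin, actc1a, was at rank 70 with 22192, troponin C tnnc2.2 at rank 134 with 14215 and acta1a at rank 153 with 12741. Tropomyosin tpma, which lies along the filament, was at rank 199. A probe set at rank 188 with 9973 named both tnni2a.4 and tnni2a.2 and was not counted.

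Thick filament and scaffold genes had 7 of 16 inside and a median percentile of 97.8. They include myl10, which was in the heart list and not in the skeletal muscle list. The myosin light chain gene mylpfa was at rank 113 with 16807, myl10 at rank 157 with 12265, myl1 at rank 161 with 11695 and mylz3 at rank 165 with 11460. The fast myosin heavy chain gene myhz1.3 was at rank 180 with 10542, whereas smyhc1, the slow myosin heavy chain, was outside at rank 366 with 5553. A brighter probe set, at rank 97 with 19355, named several myosin heavy chain genes, myhz1.3 among them, and was not assigned. Desmin, desma, lay just outside at rank 321.

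Creatine kinase genes ckmb at rank 114 with 16506 and ckma at rank 167 with 11446 supply the sarcomere with ATP. The calcium pump of the sarcoplasmic reticulum, atp2a1, was at rank 132 with 14351, and parvalbumin pvalb2, a calcium buffer of fast fibres, at rank 212 with 9010. Over all parvalbumins 2 of 9 genes were inside, pvalb2 and pvalb9 at rank 237 with 8167, and pvalb1 was at rank 361. The parvalbumin list was added after the ranks were seen, so its count shows no enrichment. The transcription factors of muscle formation had none of 8 in the top 300. These were too few genes to tell that count from the 2.85% of all named genes. Their median percentile was 48.1, far below the 98.2 of the thin filament and the 97.8 of the thick filament genes. Their brightest was myog at rank 1858 with 1272, myod1 was at rank 8019 with 153.6, and the dimmest was myf6 at rank 10885 with 64.3. The dimmest gene of the whole muscle list was ckmt2a, a mitochondrial creatine kinase, at rank 14461 with 8.93.

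The heart muscle list had a median percentile of 59.97 over 19 genes, and the skeletal muscle list 88.7 over 74. The 2 lists differ in make-up. Many genes of the heart list are transcription factors, among them hand2, gata5, nkx2.5 and tbx20, so these medians do not compare the tissues. The only gene of the heart list inside was myl10, which was also counted among the thick filament genes but was not in the skeletal muscle list. Its rank was 157, and those of the skeletal light chains mylpfa and myl1 were 113 and 161. Which tissue the myl10 signal came from was not tested. The heart's regulatory myosin light chain myl7 was next at rank 1255 with 1884, followed by cmlc1 at rank 2430 and mef2ca at rank 2872, and the dimmest was the cardiac transcription factor tbx20 at rank 15446 with 1.70.

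Globins, which carry oxygen in red cells, were split by stage. The embryonic genes hbae3 at rank 41 with 26406 and hbbe3 at rank 108 with 17544 were inside, and a second hbae3 probe set was at rank 106 with 17830. The embryonic gene hbbe2 was at rank 1301 with 1818, while the adult genes hbaa1 and hbba2 were at ranks 9462 and 15113 with signals of 98.5 and 4.03. Another 2 probe sets in the top 300, at ranks 12 and 38 with 31103 and 26588, named several embryonic globin genes each. The wider erythrocyte list had 2 of 30 genes inside, both of them globins, 6.67% beside 2.85% of all named genes. Its median percentile was 72.5. Its next gene was cpox, an enzyme of heme synthesis, at rank 825, and its dimmest was ank1a, of the red cell membrane skeleton, at rank 14736.

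The embryonic skin gave 7 of 50 genes in the top 300, 14% against 2.85% of all named genes, with a median percentile of 88.9. Keratins form the intermediate filaments of this epithelium. Keratin krt4 was at rank 59 with 23080, krt8 at rank 131 with 14452 and krt5 at rank 160 with 11707. The remaining ones inside were the widely expressed pfn1, the annexin anxa1c at rank 204, the tight junction protein gene cldng at rank 238 and icn2, of the S100 family, at rank 295. The adhesion protein gene epcam was at rank 371 with 5490. The dimmest gene was klf4 at rank 13896 with 16.1. Over all 15 keratin genes the median percentile was 74.7, and the dimmest was krt95 at rank 14553 with 8.12, so the family spanned nearly the whole array. A probe set at rank 89 with 20514 named both keratin genes cyt1 and cyt1l and was not counted.

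Genes of the yolk syncytial layer and liver had 12 of 41 in the top 300, 29.3% against 2.85% of all named genes. The apolipoproteins wrap the lipid that leaves the yolk. The brightest were afp4, of the type IV antifreeze family, which is related to apolipoproteins, at rank 66 with 22619, apoa1a at rank 81 with 21329, apoc1 at rank 136 with 13907 and apoeb at rank 148 with 13147. Also inside were apoa2 at rank 152, tfa at rank 169, the fatty acid binding proteins fabp1b.1 at rank 197 and fabp2 at rank 220, the plasma protein genes fetub at rank 205 and serpina1l at rank 254, apoa4b.2 at rank 267, and apobb.1, the large structural apolipoprotein, at rank 290. Fatty acid binding proteins as a family had 3 of 7 genes inside, with fabp3 the brightest at rank 143 with 13475 and fabp7a next outside at rank 1182. This family list was added after the ranks were seen, so its count shows no enrichment.

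This list was wide, since 10 of its genes were below the median of the array. The gene fabp10a, for the liver fatty acid binding protein, was at rank 14608 with 7.68. The dimmest of the list was apoc4 at rank 14781 with 6.28. A list of later liver functions was split, with 11 genes above the median of the array and 10 below it and a median percentile of 52.4. After apoa2 its brightest genes were itih2 at rank 2269 and the fibrinogen genes fgg at rank 2521 and fgb at rank 2831.

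The hatching gland makes the enzymes that dissolve the egg envelope. Its list had 1 of 10 genes inside, nme2b.1, a nucleoside diphosphate kinase gene, at rank 216 with 8756, followed by the tetraspanin cd63 at rank 406 with 5102, the transcription factor xbp1 at rank 439 and the protease capn9 at rank 883. The dimmest was tuft1b at rank 14340. A probe set at rank 133 with 14330 named several hatching enzyme genes and was not assigned to any of them. A brighter one, at rank 58 with 23416, named the hatching gland marker ctslb together with several genes of systematic name. It was not assigned either.

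**Figure D3:**
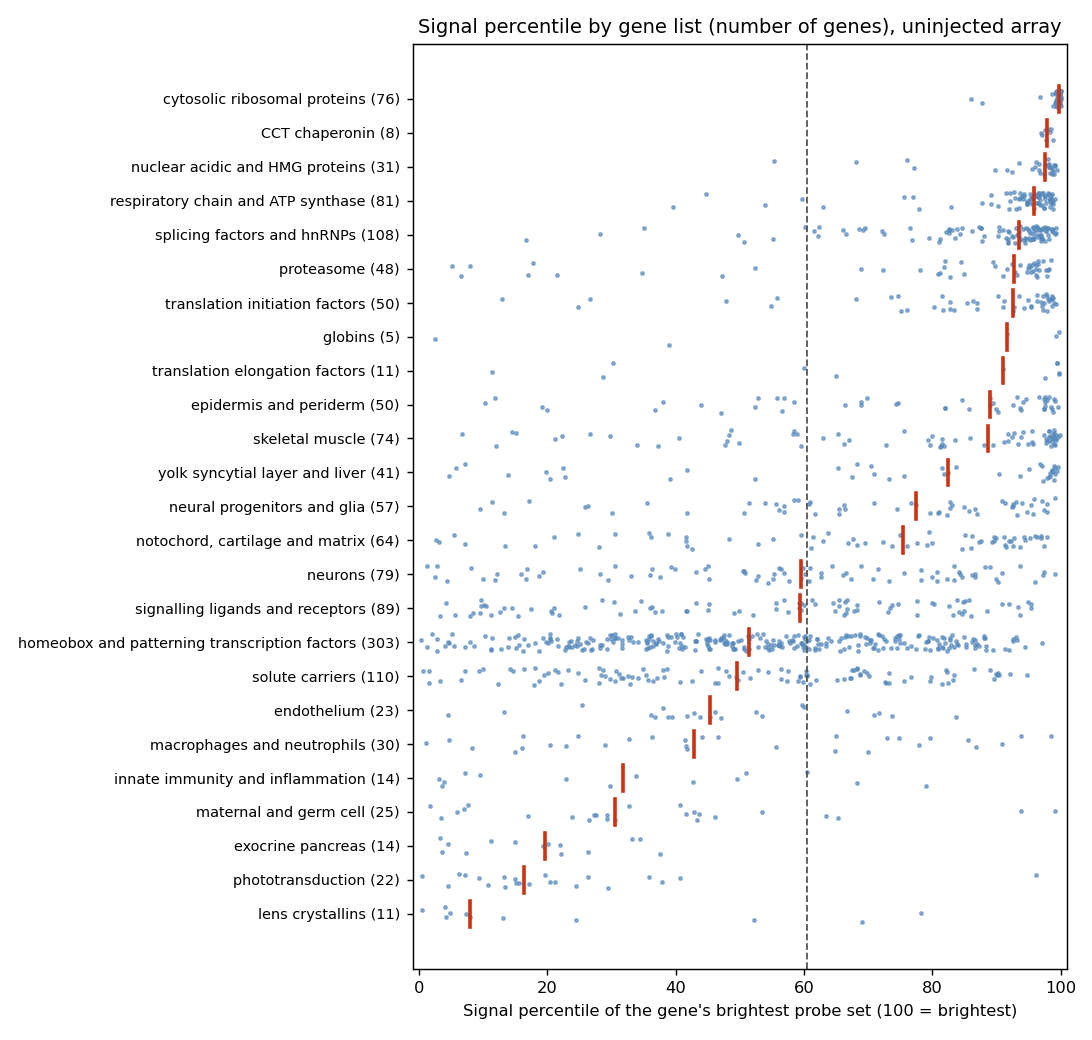
Each point is a gene, placed by the signal percentile of its brightest probe set, in 25 gene lists sorted by their median (red bar); the dashed line is the median of all named genes at 60.5. Ribosomal proteins sit at a median of 99.7, patterning transcription factors spread over the whole range with a median of 51.5, and lens crystallins sit at 7.96.

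Nervous system genes were present over a wide range of ranks. Their counts inside are read beside the 2.85% of all named genes. Neural progenitor and glial genes had 1 of 57 inside, 1.75%: marcksb, a membrane-bound actin regulator, at rank 149 with 13037. Their median percentile was 77.4. Next were glutamine synthetase glulb at rank 329, marcksl1b at rank 341 and glula at rank 412, and the dimmest was s100b, known from mature glia, at rank 14018. Neuronal genes had 1 of 79 inside, 1.27%, which was tubb2b, and a median percentile of 59.5, which is close to that of all named genes. The neuronal list continued with tuba1b at rank 398, tmsb at rank 441 and rtn1a at rank 632, and its dimmest gene was the transcription factor onecutl at rank 15301. The RNA-binding protein elavl3, made in newly formed neurons, was at rank 1575 with 1514.

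Neural crest and pigment genes had a median percentile of 83.0 over 28 genes. The brightest were purine synthesis genes, which pigment cells need but all cells use: paics at rank 163 with 11648, the only gene inside, and prps1a at rank 416. The V-ATPase subunit atp6v0ca was at rank 592 and atic, again of purine synthesis, at rank 653. The melanin enzymes were lower, with dct at rank 2094 and 1124 and tyr at rank 11997 and 44.4. The dimmest gene was csf1ra, a receptor of yellow pigment cells and macrophages, at rank 15334.

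Notochord, cartilage and matrix genes had none of 64 in the top 300, beside 2.85% of all named genes. In the brightest 10% were 17 of them, 26.6% against 14.5% of all named genes. They were led by collagen col1a1a at rank 332 with 6229, postnb at rank 407 with 5097, col1a2 at rank 472 with 4402 and the notochord collagen col2a1a at rank 485 with 4330. The dimmest was bgnb, a small matrix proteoglycan, at rank 15101.

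Kidney and ion transport genes were led by atp1b1a, a subunit of the sodium pump, at rank 837, with a median percentile of 69.7 over 26 genes. The remaining ones of their brightest were atp1b3b, slc20a1b and atp1b3a at ranks 903, 1497 and 1603, and the dimmest was atp1a1a.5 at rank 15333. Placode, ear and lateral line genes had a median percentile of 56.8 over 27 genes, led by the chemokine cxcl12b at rank 1242 with neurog1, dlx5a and cxcl12a after it, and ended by ompb at rank 14717. Endoderm genes had 1 of 21 inside, fabp2, which is 4.76% beside 2.85% of all named genes. Then came agr2, shha and gata5 at ranks 2286, 3112 and 3900, and vil1 came last at rank 15478.

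Vessels and immune cells lay lower. Endothelial genes had a median percentile of 45.3 over 23 genes, with none in the brightest 10%, beside 14.5% of all named genes. Their brightest was s1pr1, a lipid receptor, at rank 2522 with 923.1, followed by cxcr4a at rank 4070, aplnra at rank 4398 and plvapb at rank 4506, and the dimmest was sox17 at rank 14794. Macrophage and neutrophil genes had a median percentile of 42.9 over 30 genes. After ctsba, which other cells also make, the list continued with tspan36 at rank 972, the protease ctsc at rank 1409 and cebpa at rank 2041. Lysozyme lyz was at rank 2240 with 1051. Whether the signals of these genes came from macrophages or neutrophils was not tested. Innate immunity and inflammation genes had a median of 31.8 over 14 genes, led by nfkbiab at rank 3249, with c3a.1, irak4 and ikbkg after it, and ended by the interferon ifnphi1 at rank 15022 with 4.58.

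Several lists of organs that differentiate later lay low. Lens crystallins, the transparent proteins of the eye lens, had a median percentile of 7.96 over 11 genes. Even so, crybb1 at rank 3366 with 672.2, cryba4 at rank 4807 with 411.9 and crygmxl2 at rank 7398 with 183.5 were above the median of the array, while cryaa was below it at rank 11705 and the dimmest, crygm6, was at rank 15433. Other lens and retina genes had a median of 38.7 over 22 genes, led by the eye field factors pax6a at rank 2681, six3a at rank 4403 and otx2b at rank 4718, then by mitfa, and ended by atoh7 at rank 15066.

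Phototransduction genes had a median of 16.4, with 21 of 22 below the array median. The exception was gnb1b at rank 588, a G protein subunit that many tissues use; next were opn1sw2, gnat1 and pde6c at ranks 9188, 9637 and 9950, and the last was rgs9a at rank 15423. All 14 exocrine pancreas genes were below the array median, with a median percentile of 19.7, led by cpb1 at rank 9689 and then prss1, ela2l and amy2a, with pdia2 at rank 14991 as the dimmest. All 6 genes of adaptive immunity were also below it, with a median of 24.4, led by b2m at rank 8704 and then ikzf1, rag1 and cd74a, with cd74b last at rank 14466. The 6 myelin genes had a median percentile of 65.6, above the 60.5 of all named genes. They were split, with pmp22b at rank 1655, mbpb at rank 2756, sox10 at rank 3878 and egr2b at rank 6804 above the array median and mbpa last at rank 13841. Among these, sox10 was also in the neural crest list and egr2b also among the patterning transcription factors, so the median is not of myelin genes alone.

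Maternal and germ cell genes lay low as well, with a median percentile of 30.5 over 25 genes and 20 of them below the array median. The only gene inside was ybx1, an mRNA-binding protein of many tissues, at rank 142 with 13480. The mitotic cyclin ccnb1 followed at rank 953, and the germ cell genes nanos1 at rank 5387 and dnd1 at rank 5669 came next. The dimmest was btg4, known for clearing maternal mRNA, at rank 15243 with 3.25.

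Of the 303 genes for homeobox and other patterning transcription factors 0 were inside, beside 2.85% of all named genes. Their median percentile was 51.5. Below the median of the array were 146 of them, and 51.8% were above it, against 61.3% of all named genes. The brightest was sox3, a factor of neural progenitors, at rank 454 with 4590. It was followed by foxk2b at rank 859 with 2683, sox11b at rank 1054, sox11a at rank 1077 and tfap2a, of epidermis and neural crest, at rank 1154. The hairy-related genes her9 at rank 1159 and her6 at rank 1347 came next, on either side of hoxc8a at rank 1258. Then came klf6a at rank 1642, hes6 at rank 1802, meis1b at rank 1814, hoxb3a at rank 1841, myog at rank 1858, msx3 at rank 1860 and foxd3 at rank 1982. The dimmest was tbx20.

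Hox genes, which set position along the body axis, had a median percentile of 54.3 over 42 genes. After hoxc8a with 1879 and hoxb3a with 1288 the brightest were hoxb9a with 1029 and hoxb8a with 877.4, and the dimmest was hoxa1a at rank 12332 with 39.2. Segmentation and tail bud genes had a median of 48.7 over 35 genes, led by lfng, which modifies Notch, at rank 440 with 4715 and the Notch ligand genes dld at rank 728 and dla at rank 1416, with hes6 after them, and ended by szl at rank 14977.

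Signalling ligands and receptors had none of 89 genes in the top 300, beside 2.85% of all named genes. Their median of 59.4 was close to that of all named genes. They were led by dld, the growth factor genes mdka at rank 730 and mdkb at rank 796, and the Wnt receptor fzd7a at rank 980, and the dimmest was wnt2 at rank 14997 with 4.74. Solute carriers, leaving out those of mitochondria, had none of 110 genes inside, beside the same 2.85%. Their median was 49.5, from slc1a3a at rank 817, slc11a2, slc20a1b and slc39a7 down to slc2a9l1 at rank 15409. A pair of regulators in none of these lists were inside, both chosen after their values were seen: ctnnb1, which encodes beta-catenin, at rank 248 with 7861 and id1, an inhibitor of bHLH factors, at rank 265 with 7265. The histone deacetylase gene hdac1, chosen likewise, was at rank 291 with 6824.

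Of the 267 named probe sets of the top 300, 240 belonged to at least 1 of 61 gene lists and 27 to none. The brightest of these 27 with a gene name was tpt1, a widely expressed growth-related protein, at rank 75 with 21655. It was followed by hdlbpa, an RNA-binding vigilin, at rank 154 with 12713, and by the chromatin protein nucks1a at rank 171 with 11172. Others were enzymes of central metabolism: transketolase tktb at rank 191, malate dehydrogenase mdh1aa at rank 192 and isocitrate dehydrogenase idh2 at rank 196. These were also chosen after their values were seen. The 18 probe sets without a gene name reached up to rank 14 with a signal of 30710.

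The limit at rank 300 cut through a smooth slope. The last members were pa2g4b with 6795, psma8 with 6779, rtn4a with 6763, snrpf with 6753 and gspt1l with 6747. The first probe sets outside were sec61g with 6742, tpi1b with 6730, rab2a and ndufc2 with 6688 each and snrpd1 with 6682. Neither side holds a gap, and the proteasome, splicing, translocon, glycolysis and respiratory chain lists all had a gene on this edge.

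How far a rank depends on the probes was measured on genes with more than 1 probe set. For the 1539 such genes the brightest probe set was a median of 3.45 times the dimmest, with quartiles of 1.81 and 9.39. In 24.1% of them the ratio was over 10, and in 27.9% it was under 2. Among the 36 of these genes with a probe set in the top 300 the median ratio was 4.82, and only 9 had all their probe sets inside. These 36 were chosen by their brightest probe set, so a larger ratio than over all such genes follows in part from that choice. The same holds for the low count with all probe sets inside.

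The widest ratios among those 36 were between probe sets at the 2 ends of the array. For actc1b the brightest had 31830 and the dimmest 7.48, with its 4 probe sets at ranks 8, 32, 11788 and 14623. The ATP synthase subunit atp5l had 7180 and 3.37, hsp90ab1 had 13162 and 8.53, rpl21 had 16401 and 29.7, and ybx1 had 13480 and 35.5. In 8 of the 36 genes the dimmest probe set lay below the median of the array. Which probe set of such a gene reflects its transcript was not tested. A dim probe set alone therefore does not show a dim gene, nor a bright one alone a bright gene. The percentiles above rest on the brightest one.

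**Figure D4:**
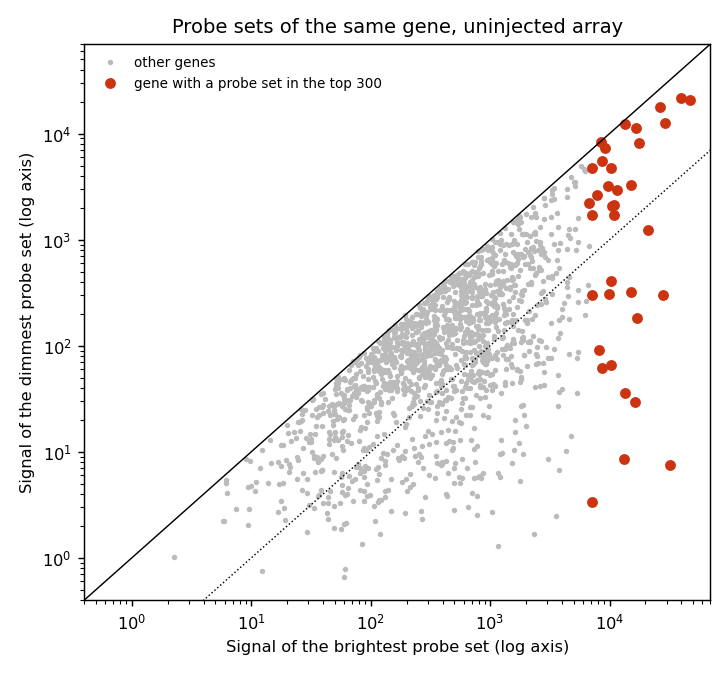
Each point is a gene with more than 1 probe set, with the signal of its brightest probe set on the x axis and of its dimmest on the y axis (both log axes); the solid line marks equality and the dotted line a ratio of 10. Of the 36 genes with a probe set in the top 300 (red), 15 have a ratio over 10.

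Zebrafish keeps many duplicate genes from a genome duplication in the ancestor of teleost fishes, and the symbols of many end in a and b. The array named 662 pairs of genes whose symbols differ only in a final a and b. This count goes by symbol alone and includes genes that are no copies of each other, such as eif5a and eif5b or snrpa and snrpb, so its medians are not of gene copies alone. Both genes were in the top 300 for 10 pairs, 1 gene for 30 pairs and neither for 622. The ratio between the brighter and the dimmer gene had a median of 2.97 over all pairs. Between probe sets of the same gene the median ratio was 3.45, but that sets the brightest against the dimmest probe set. The pairs use only the brightest probe set of each gene, so these medians are unlike measures. Since signals also depend on the probes, a ratio within a pair is given as a ratio of signals and not of transcript amounts.

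Where both genes were inside, their signals lay close, with a median ratio of 1.33 and a largest of 2.02. Actin actc1a had 22192 and actc1b 31830. The ribosomal genes rpl5a and rpl5b had 21025 and 29293, and the isomerase genes ppiaa and ppiab had 28260 and 14019. The pairs cirbpa and cirbpb, ckma and ckmb, and atp5mc3a and atp5mc3b had ratios of 1.02, 1.44 and 1.85. Both genes had to pass the same signal limit, so a close ratio follows in part from the choice of these pairs.

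Where only 1 gene was inside, the median ratio was 5.34. These 30 pairs include eif5a and eif5b, which are no copies of each other. Since 1 gene had to pass the signal limit and the other not, a wide ratio follows in part from the choice of these pairs. The widest was that of the mitochondrial phosphate carrier, with 26.3 for slc25a3a and 10083 for slc25a3b. The myosin-binding gene mybpha had 54.6 and mybphb 8083. Vigilin hdlbpa had 12713 and hdlbpb 188.1, the initiation factor gene eif3ea had 9222 and eif3eb 219.7, snu13a, named for a small nucleolar and spliceosomal protein, had 177.0 and snu13b 7002, and hmgn1a had 10921 and hmgn1b 389.8. In 11 of the 30 pairs the ratio was over 10. The part of the probes in these ratios was not tested, since most genes had a single probe set.

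**Figure D5:**
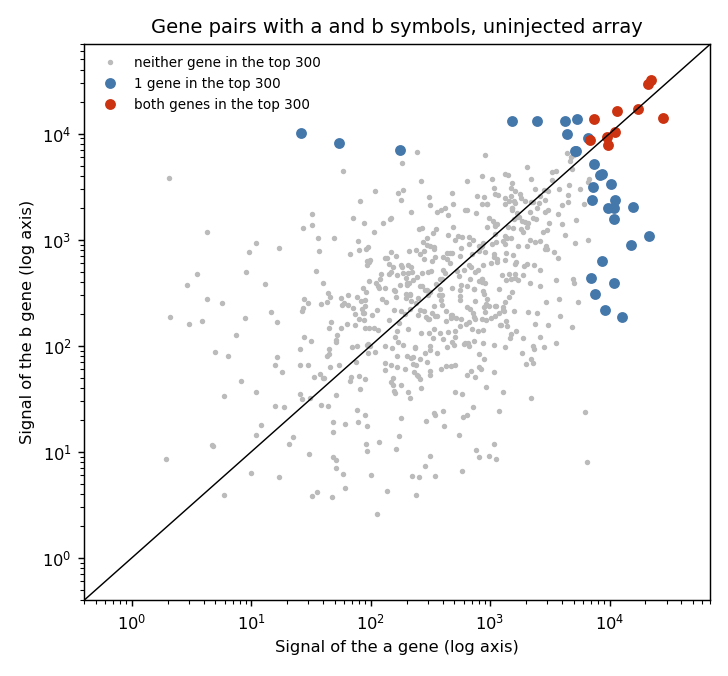
Each point is a pair of genes with a and b symbols, with the signal of the a gene on the x axis and of the b gene on the y axis (both log axes, brightest probe set of each gene); the line marks equality. The 10 pairs with both genes in the top 300 (red) lie near the line, and the 30 pairs with 1 gene inside (blue) reach from 1.31-fold to 383-fold.

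The positions of the genes were read from the order of genes in the RefSeq annotation of assembly GRCz12tu. The top 300 named 250 genes placed on nuclear chromosomes, and all 25 chromosomes held some, between 2 and 19 each. Among 3498 pairs of neighbouring genes that were both on the array, 9 pairs had both genes in the top 300, which is 0.257%. Some of these neighbours share a function: krt5 and krt8 are keratins, rplp2 and rps26l are ribosomal proteins, hnrnpa0b and hnrnpa0l are hnRNPs, and the apolipoprotein genes apoa4b.2, apoeb and apoc1 follow each other and were at ranks 267, 148 and 136. Others, such as actc1a and rrm2l or dynll1 and rpl6, do not.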

How the data were processed

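Per the labels' protocols, total RNA was extracted with Trizol and measured as biotinylated cRNA on an Affymetrix array with 1 colour. The deposited value of each probe set was a linear signal intensity made with GCOS 1.4, per the submitters' processing notes; its other settings are not given in the sources used here. Trimmed by 2% at each tail, its mean over the 15617 probe sets was 500.1, so it carried a global scaling, which changes no rank. The 115 maker's controls were left out. The 2 columns of the injected pools were not used. Gene names came from the platform annotation where it gave 1 gene, and current symbols from RefSeq for the 10711 probe sets whose gene ID matched, which changed 1 symbol. Ranks, percentiles and ratios were computed with Python 3.11.15, pandas 2.3.3, numpy 2.4.6 and scipy 1.17.1, and the ranking was checked on simulated data with 200 raised probe sets.

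The members and gene lists were chosen with earlier results of these data known. List spellings were completed, symbols caught by a shared prefix alone removed (such as tbxas1 from the transcription factors) and 3 lists (methyl transfer and creatine, fatty acid binding proteins, parvalbumins) added after the ranks were seen. Named were the 30 brightest probe sets with a gene symbol that is no clone name and the 15 brightest transcription factors, the 4 brightest genes of each list and the dimmest of the tissue, late-stage and regulator lists, the 5 widest ratios between probe sets, 6 pairs of each kind and the 5 probe sets on each side of rank 300. For brevity only part of these are printed, and a few genes that complete a list were added. Protein and promoter sequences were not analysed here. Alternatives were a limit at rank 100 or 600, other summaries per gene, other naming and the lists as first written.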

Additional observations from a re-analysis of the deposited data

Results flagged for a closer look

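Beyond the spike-in, actin and GAPDH probe sets, 2 of the maker's control probe sets, which were in no ranking, had signals above the limit of the top 300, with 25206 and 15050. They were marked because they lie outside the main measurement and above 52.1. That was the brightest of the 5 chosen controls named for reporter proteins or bacterial genes, spike-in controls left out.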

How the results depend on the processing

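Of 190 alternative values, 163 lay inside the 95% interval of the reported share or median and 27 outside it, 23 of them from moving the limit. The interval rests on the probe sets or genes of 1 array and holds no replicate error. It served only as a yardstick for the size of a change. A value inside it does not show that the result would repeat, and moving the limit changes a share by construction. At rank 100, ribosomal proteins were 63% of the top, with 78.8% of their list inside. Respiratory chain, splicing and initiation lists gave 0 on both measures. Skeletal muscle gave 3% of the top and 3.45% of its list, yolk and liver 2% and 4.35%, high mobility group 1% and 2.44%, and epidermis 1% and 1.49%. At rank 600, ribosomal proteins were 12.8% and muscle 4.5% of the top, and the share of the list inside was 44.3% for the respiratory chain, 56.1% for high mobility group, 23.4% for splicing, 32.8% for initiation and 22.4% for epidermis. With the median or the dimmest probe set per gene the splicing median was 91.5 or 90.6, and with the dimmest the transcription factor median was 45.02. Moves inside the interval were not always small. The epidermis median went from 88.9 to 74.5 with the dimmest probe set and to 83.5 without probe sets of an a, s or x ending. The skeletal muscle median went from 88.7 to 82.5 with the dimmest probe set. The ratio between probe sets was 3.93 for genes whose brightest lay above the array median, a choice that in part raises the ratio. The lists as first written and probe sets naming several genes of 1 list, both chosen after seeing the data, moved no value outside its interval. With 1 array no replicate could be left out. No paired analysis was possible because the result comes from no test. Without detection calls, low ranks set no limit of detection.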
